A study of Drosophila melanogaster with 3 samples.

Results

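The 8 Hox genes of Drosophila melanogaster were examined for binding of the CG6254 protein in embryos. They are lab, pb, Dfd, Scr and Antp of the Antennapedia complex and Ubx, abd-A and Abd-B of the bithorax complex, 8 of the 13945 protein-coding genes annotated on the 6 main chromosome arms. All lie on 3R. Their loci were taken as each gene body with 20 kb on either side, which after merging of overlaps gave 6 intervals with a total of 627 kb. Of the 4426 peaks that the authors kept after the irreproducible discovery rate (IDR) procedure, 32 had their summit in these loci, or 0.723%. The IDR procedure compares the ranks of peaks between replicates. The list kept here was the 4426 strongest peaks called on the pooled replicates, so a kept peak need not rank alike in each replicate. A summit is the base at which the authors' caller placed the top of a peak.

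The samples were 3 biological replicates of whole embryos from 1 transgenic line, aged 0 to 14 h and of mixed sex, and they form a single group with no treatment. The line stably carries CG6254, a gene for a zinc finger protein, fused to green fluorescent protein (GFP) at its C-terminus. Chromatin was sonicated to 200 to 800 bp and precipitated with an antibody against GFP, then sequenced. The sources used here do not say what drives the tagged gene or whether untagged protein is also present. A whole-embryo peak averages over every cell and stage in the collection, so it cannot show in which segments a site was occupied.

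Hox genes encode homeodomain transcription factors that give body segments their identity along the head-to-tail axis. In flies they sit in a pair of gene complexes, in roughly the order in which they act from head to tail. Their expression is switched on by gap and pair-rule factors acting through enhancers in introns and between genes, and is then held on or off by Trithorax and Polycomb group proteins. Long regulatory DNA, non-coding transcripts and boundary elements between enhancer domains are well known features of both complexes.

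Each replicate's relaxed list and the pooled list held 30000 peaks, and the IDR list was the same as the 4426 strongest peaks of the pooled list. Signals are the authors' own values per peak, without an error and on a scale that can differ between lists. Pooled signals are therefore used only within the pooled list, and replicates are compared by rank, where rank 1 is the strongest peak of a list. A summit was called matched in a replicate when that replicate had a summit within 200 bp among its own 4426 strongest peaks. Peak lists carry no read counts, so the sequencing depth is unknown here. No p-values are given, since there is 1 group of samples and the genes were chosen with earlier results of these data known.

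The Hox loci held IDR summits at 5.10 per 100 kb, against 3.31 per 100 kb over the 6 arms and 3.34 over 3R alone. When the 4426 strongest peaks of each replicate were used in place of the IDR list, the loci held 28, 25 and 31 summits in replicates 1, 2 and 3. These are densities of 4.46, 3.98 and 4.94 per 100 kb (mean 4.46 ± 0.478, SD, n = 3), with the same 3.31 over the arms in each list. All 3 replicates thus lay above the arms and below the value of the IDR list. In the pooled list the loci held 189 summits, 30.1 per 100 kb against 22.4 over the arms, and 16.9% of them were in the IDR list. Keeping only IDR peaks matched in both remaining replicates leaves fewer peaks everywhere, and without replicates 1, 2 and 3 the density was 3.19, 2.87 and 3.03 per 100 kb against 2.21, 2.09 and 2.18 over the arms.

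Summits in the Hox loci lay mostly in introns and seldom at promoters. Introns held 21 of 32 (65.6%, exact 95% interval 46.8 to 81.4), against 38.4% of all IDR summits. Only 6 of 32 (18.8%, interval 7.21 to 36.4) were promoter summits, defined here by a distance of at most 500 bp to the transcription start site (TSS) of any gene, against 42.7% of all IDR summits. A further 4 were intergenic (12.5%, interval 3.51 to 29.0), against 15.9%, and 1 lay in a 5' UTR. None lay in a coding exon or a 3' UTR, and a count of 0 of 32 allows a share of up to 10.9% (upper bound of the exact interval). The intervals cover counting error only.

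The low promoter share was also seen in each replicate by itself. It was 14.3%, 20% and 16.1% in the Hox loci for replicates 1, 2 and 3, against 47.6%, 46.8% and 37.5% of all strongest peaks. Without replicates 1, 2 and 3 the Hox share of the remaining IDR summits was 10%, 5.56% and 10.5%, against 41.3%, 42.4% and 46.5%. The median distance from a Hox locus summit to the nearest TSS of any gene was 3450 bp, against 800.5 bp for all IDR summits. Among summits away from promoters the medians were 3930.5 bp and 2710 bp. Of the 32 summits, 10 (31.3%) were more than 5000 bp from any TSS, against 17.7% of the whole list. The Hox genes are long, and the part of gene length in these shares was not tested.

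By gene rather than by summit, 3 of the 8 Hox genes (37.5%), Dfd, abd-A and Abd-B, had an IDR summit within 500 bp of one of their own TSSs. The share was 14.8% over all protein-coding genes and 26.2% over the 1977 whose body was at least 10 kb long, as all 8 Hox genes are. The count depended on the replicate. Among the strongest peaks of replicate 1 it was 2 of 8 against 16.4% of all genes, in replicate 2 it was 2 of 8 against 16.0%, and in replicate 3 it was 1 of 8 (12.5%) against 12.6%. The Hox share was thus above that of all genes in replicates 1 and 2 and not in replicate 3. Shares over genes with a body of at least 10 kb are not given per replicate, so this comparison does not allow for gene length. A single gene is 12.5% of the 8. Abd-B had such a summit in every replicate, abd-A in replicates 1 and 2, and Dfd in none. Without replicate 1 or replicate 2 the count was 1, and without replicate 3 it was 2. Shares over all genes are not given for these reduced sets.

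An IDR summit lay inside the gene body of 5 Hox genes, lab, pb, Antp, Ubx and Abd-B, against 44.1% of genes with a body of at least 10 kb. All 8 had a summit in the body or the 20 kb around it, against 80.3% of those genes. The median was 3 summits per Hox window and 2 per window of the longer genes (quartiles 1 and 4). Densities in the separate windows ran from 2.55 per 100 kb at Ubx to 9.55 at abd-A, with a median of 4.71 against 3.55 for the longer genes (quartiles 1.39 and 6.0). Densities at abd-A and Abd-B (8.23) lay well above the upper of these quartiles, that at Antp (6.29) just above it and that at Dfd (5.93) just below it. At lab (3.50), Scr (2.99), pb (2.69) and Ubx they were below the median of the longer genes.

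**Figure D1:**
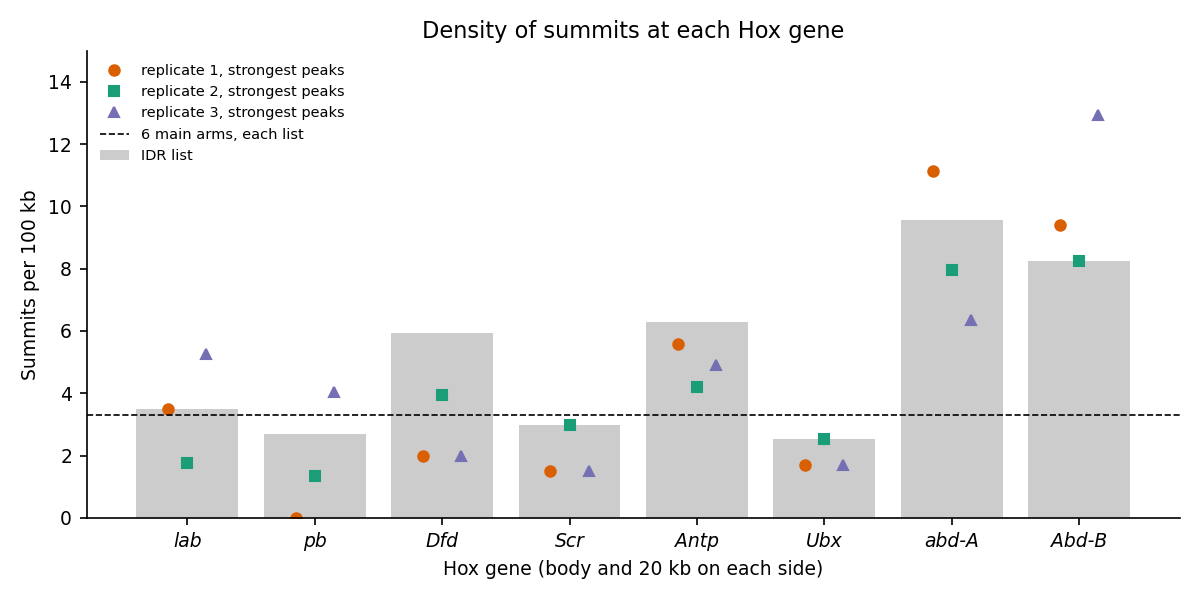
Summits per 100 kb in the body and 20 kb on each side of each Hox gene. Bars are the IDR list, points are the 4426 strongest peaks of each replicate, and the dashed line is the density over the 6 main arms (3.31 per 100 kb). The bars of abd-A (9.55) and Abd-B (8.23) are the tallest of the 8, and the points of pb run from 0 in replicate 1 to a density above its bar in replicate 3.

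Hox locus peaks were of moderate strength. Their median pooled signal was 194.7 against 228.7 for the IDR list, and their median rank was 2884.5 against 2213.5. Of the 32, 13 were among the strongest 2213 peaks of the list and 2 (6.25%) were among its strongest 443 peaks, both of them at Abd-B. The lowest, at Dfd, had a signal of 147.616, just above the lowest of the whole list at 147.508. Summits of 16 of the 32 (50%, exact 95% interval 31.9 to 68.1) were matched in all 3 replicates, against 56.0% of all IDR summits. With 10 kb around the genes the share was 57.7% and in the gene bodies alone 70.6%, so its side of 56.0% depends on the window. A further 9 were matched in 2 replicates, 5 in 1 and 2 in none, those at 6791473 by Dfd and at 6816712 by Scr. Since the IDR list was made from these replicates, a match is no independent check.

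**Figure D2:**
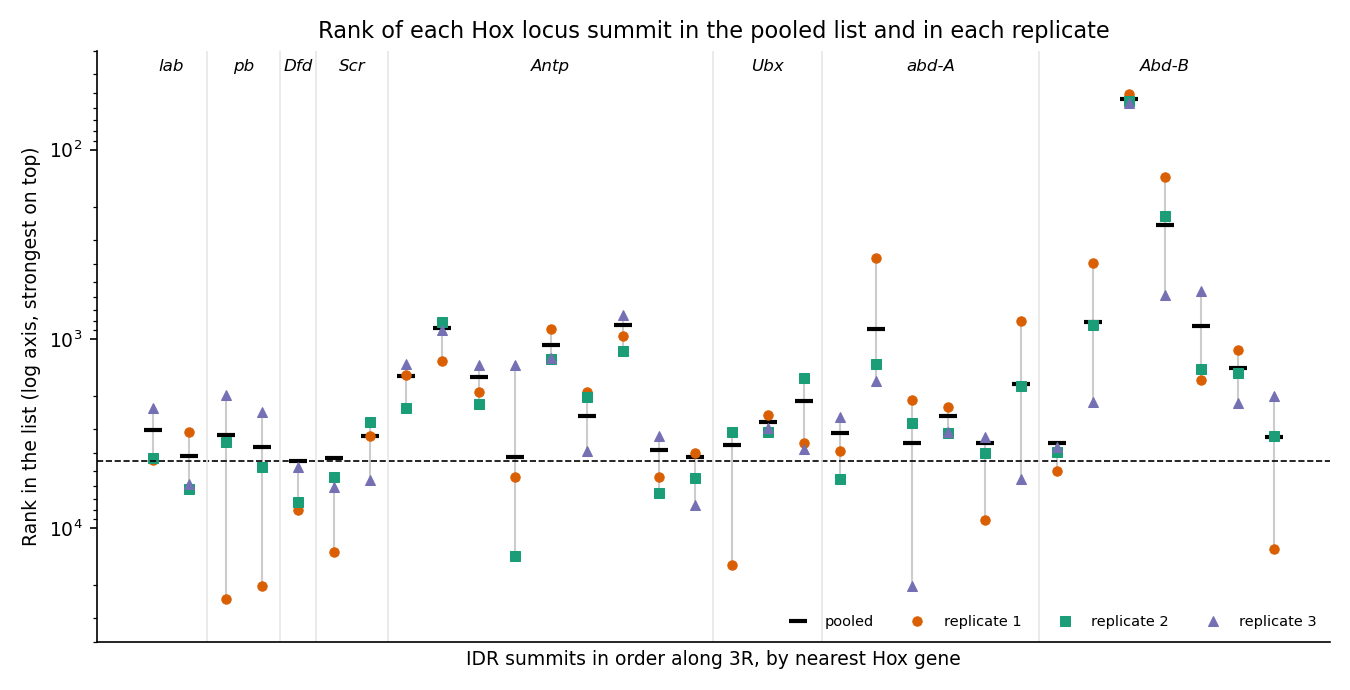
Rank of each of the 32 Hox locus summits in the pooled list (black bars) and of the nearest summit within 200 bp in each replicate (coloured symbols), on a log axis with the strongest on top. Summits are ordered along 3R, a grey line joins the lowest and the highest rank, and the dashed line marks rank 4426. The 5' UTR peak of Abd-B stands highest, at ranks 51, 55 and 57, and the longest grey line is that of the intronic pb summit, from 1992 in replicate 3 to 23671 in replicate 1.

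The sequences below are the 101 bp around summits on which the account by gene rests, each centred on its summit, from the RefSeq copy of the dm6 assembly, plus strand of 3R. They are the strongest summit of each Hox gene, with Dfd and Scr sharing one, and the summits at the promoters of Dfd, abd-A and Abd-B. Capitals mark matches on either strand to any of 10 searched motifs, which are spelled out further on. Windows without capitals hold none of them. The strongest Abd-B window lies wholly in a 5' UTR and is not shown.
lab, chr3R:6667389-6667489: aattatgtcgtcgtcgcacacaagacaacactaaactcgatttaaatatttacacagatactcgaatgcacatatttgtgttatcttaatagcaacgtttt
pb, chr3R:6723952-6724052: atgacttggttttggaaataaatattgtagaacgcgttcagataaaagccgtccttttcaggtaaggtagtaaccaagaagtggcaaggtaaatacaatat
Dfd promoter, chr3R:6791423-6791523: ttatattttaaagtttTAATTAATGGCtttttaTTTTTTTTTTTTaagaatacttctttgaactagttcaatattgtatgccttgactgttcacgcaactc
Dfd and Scr, chr3R:6818727-6818827: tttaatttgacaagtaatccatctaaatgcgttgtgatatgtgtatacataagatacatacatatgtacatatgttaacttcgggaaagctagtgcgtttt
Antp, chr3R:6936239-6936339: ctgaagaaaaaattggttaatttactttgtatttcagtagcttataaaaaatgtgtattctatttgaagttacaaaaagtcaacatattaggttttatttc
Ubx, chr3R:16730888-16730988: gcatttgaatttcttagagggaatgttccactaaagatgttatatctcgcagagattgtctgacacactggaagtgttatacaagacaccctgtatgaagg
abd-A, chr3R:16798813-16798913: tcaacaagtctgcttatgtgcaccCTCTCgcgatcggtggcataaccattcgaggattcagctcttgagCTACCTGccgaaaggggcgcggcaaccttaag
abd-A promoter, chr3R:16830131-16830231: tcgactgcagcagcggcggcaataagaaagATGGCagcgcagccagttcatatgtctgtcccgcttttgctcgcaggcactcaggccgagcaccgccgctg
Abd-B promoter, chr3R:16934320-16934420: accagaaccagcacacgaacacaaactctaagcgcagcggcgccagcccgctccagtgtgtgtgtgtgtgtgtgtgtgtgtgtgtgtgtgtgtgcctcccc

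The gene lab (FBgn0002522; 3R, 6661427 to 6678590, minus strand) acts in the embryonic head and midgut. Its window held 2 IDR summits, both in introns, 3985 bp and 3906 bp from the nearer of its 2 TSSs. The stronger, at 6667439, had a pooled signal of 188.6 and rank 3024, and ranked 4387, 4248 and 2309 in replicates 1, 2 and 3. It was therefore just inside the 4426 strongest peaks of replicates 1 and 2. The other, at 6674684, had a signal of 153.4 and ranked 3111, 6246 and 5872, so that it was matched in replicate 1 alone. Its window was A and T rich, with 24.8% GC. At the promoters of lab the best pooled peak was far below the IDR cut, at rank 22064, 329 bp from a TSS. Leaving out any replicate left 1 summit at lab.

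The gene pb (FBgn0051481; 3R, 6707800 to 6742063, minus strand) specifies adult mouthparts. Of its 2 summits, the one at 6724002 lay in a pb intron, 18061 bp from the single TSS, with a signal of 181.6. It ranked 23671 in replicate 1, 3517 in replicate 2 and 1992 in replicate 3. The other lay upstream at 6761029 in intergenic DNA, 1563 bp from a TSS of bcd, which encodes the anterior morphogen Bicoid, and ranked 20299, 4776 and 2424. Both were thus weak in replicate 1 and strongest in replicate 3. The pb window held 0, 1 and 3 of the strongest summits of replicates 1, 2 and 3 (mean 1.33 ± 1.53, SD, n = 3), a spread larger than the mean. No summit remained without replicate 2 or replicate 3, and 1 remained without replicate 1.

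Dfd (FBgn0000439; 3R, 6791836 to 6802428, plus strand) specifies the maxillary and mandibular segments. It was the 1 gene of the Antennapedia complex group with an IDR summit at its own promoter. That summit, at 6791473, lay 363 bp upstream of the single TSS, with a signal of 147.6 and rank 4417 of 4426. It ranked 8056, 7270 and 4745 in replicates 1, 2 and 3, outside the strongest 4426 of each. Among all 8 genes this promoter call was the closest to the threshold. The window sequence printed above holds TAATTA directly followed by a reverse match to GCCAT, near a run of T.

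Scr (FBgn0003339; 3R, 6823120 to 6849981, minus strand) specifies the labial segment, the prothorax and the salivary glands. It had no IDR summit in its body, and the nearest pooled summit to one of its 2 TSSs was 502 bp away. Both summits of its window lay beyond its 3' end and fell in the Dfd window as well. The stronger, at 6818777, was intergenic, 1117 bp from tRNA:Lys-TTT-2-1, with a signal of 180.1 and ranks of 3247, 2763 and 5581. The other, at 6816712, lay 333 bp from a TSS of lncRNA:CR42651, a long non-coding RNA gene. It had a signal of 151.0 and ranked 13397, 5393 and 6063, outside the strongest 4426 of each replicate. With replicate 1 or 2 left out no summit remained in either window, and without replicate 3 the stronger of these remained.

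Antp (FBgn0260642; 3R, 6896253 to 6999228, minus strand), which gives the mesothorax its identity, is the longest Hox gene at 103 kb. It held the most summits, 8 in its body and 1 beyond its 3' end, and 28 protein-coding genes in all had 8 or more in the body. All 9 lay in introns of Antp or, for the one outside, of lncRNA:CR44931. None was at an Antp promoter, where the best pooled peak had rank 13413 at 172 bp from a TSS. The counts in the strongest peaks of replicates 1, 2 and 3 were 8, 6 and 7 (mean 7.0 ± 1.0, SD, n = 3), so the replicates differed little.

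The strongest Antp summit, at 6936289, lay 3449 bp from an Antp TSS with a signal of 413.2 and rank 845, and it ranked 969, 1154 and 747. The next, at 6903440, had a signal of 404.2 and ranked 1311, 816 and 895. The third, at 6914513, had a signal of 361.0 and ranked 891, 1278 and 1264. These peaks kept close ranks, with a highest rank number at most 1.61 times the lowest. They lie in introns that Antp shares in part with CG46458, a protein-coding gene annotated on the same DNA. Of the 9 summits, 6 were matched in all 3 replicates. A pair chosen after their values were seen, at 6912612 and 6912811, was 199 bp apart and fell on 1 and the same peak of replicate 3, so they may not be separate sites.

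**Figure D3:**
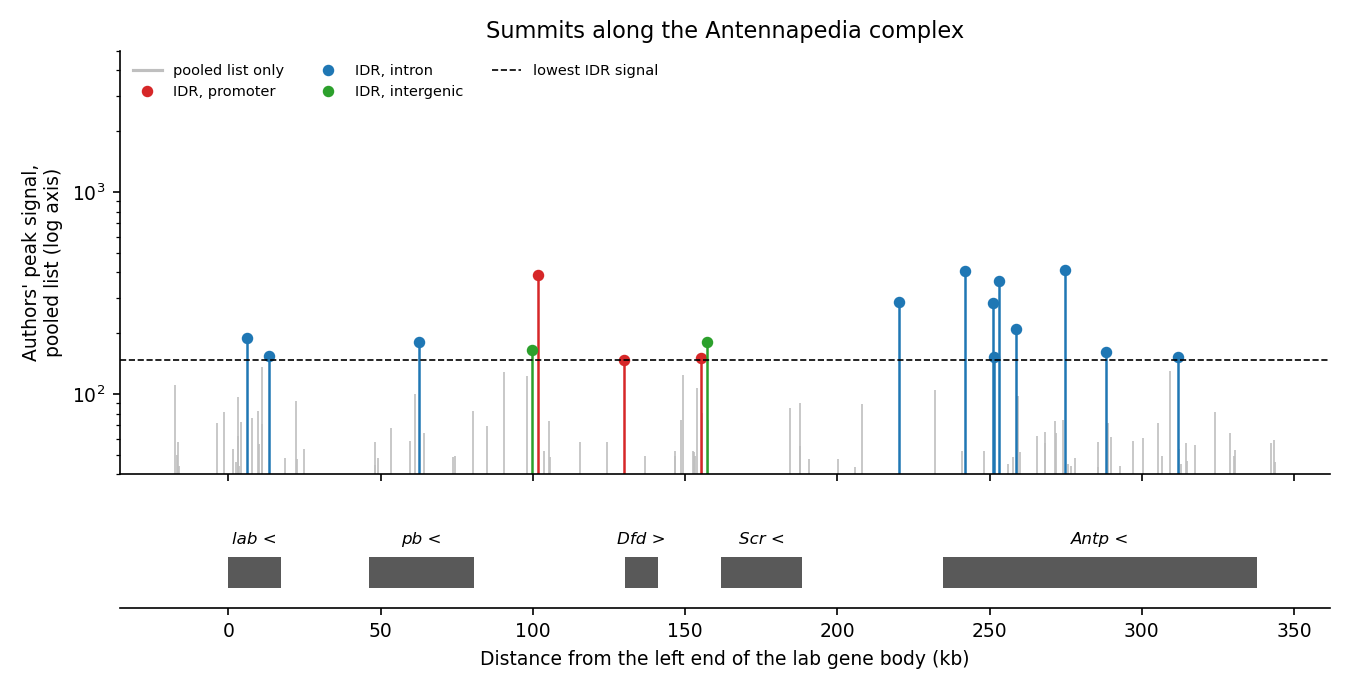
Summits along the Antennapedia complex, from lab to Antp, by distance from the left end of the lab gene body (kb). Heights are the authors' pooled signal on a log axis, grey lines are pooled peaks outside the IDR list, coloured points are IDR summits by class, and the dashed line is the lowest IDR signal (147.5). Gene bodies with their strands are drawn beneath. Of the 17 coloured points 8 lie in the body of Antp, and the bodies of Dfd and Scr hold none.

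Ubx (FBgn0003944; 3R, 16656623 to 16734426, minus strand) specifies the posterior thorax and the anterior abdomen, and represses wing fate in the haltere. It had 3 IDR summits, and the density of 2.55 per 100 kb was the lowest of the 8 genes. The strongest, at 16730938, was intronic and 3488 bp downstream of the single TSS, with a signal of 234.4 and rank 2131. It ranked 3560, 1606 and 3812 in replicates 1, 2 and 3. The next, at 16718109, was likewise in an intron, 2018 bp from a TSS of the antisense RNA gene asRNA:PS4, with a signal of 200.8 and close ranks of 2538, 3110 and 2955. Both were matched in every replicate.

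The remaining Ubx summit, at 16647122, lay 9.50 kb beyond the 3' end of the gene at a promoter of CG10324. It had a signal of 167.8 and ranked 15606 in replicate 1 and 3090 in replicate 2, and replicate 3 had no summit within 200 bp anywhere in its relaxed list. At the TSS of Ubx itself the pooled list had nothing within 500 bp, and its nearest summit was 3069 bp away. Leaving out any replicate left the 2 intronic summits.

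The gene abd-A (FBgn0000014; 3R, 16807214 to 16830049, minus strand), which patterns the middle abdomen, had 6 summits around it and none in its body. Its density of 9.55 per 100 kb was higher than that of 89.8% of the genes with a body of at least 10 kb. The strongest summit, at 16798863, was intergenic, 8.35 kb beyond the 3' end of the gene, with a signal of 401.8 and rank 886. It ranked 374, 1355 and 1663 in replicates 1, 2 and 3. Its window holds a match to GAGAG and the single match to CAGGTAG in the 32 windows, and 54.5% GC.

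A summit at the promoter of abd-A, at 16830181, lay 132 bp upstream of a TSS with a signal of 170.0 and rank 3568. It ranked 2103 and 2791 in replicates 1 and 2 but 20279 in replicate 3. Its window had 61.4% GC, the joint highest of the 32, and holds ATGGC, the reverse complement of GCCAT. The part of GC content in the difference between replicates was not tested.

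Upstream of abd-A, 3 summits lay in introns of lncRNA:iab8, a long non-coding RNA gene that runs between abd-A and Abd-B and gives rise to a microRNA known to act on Hox transcripts, and of MSAmiP on the same DNA. The strongest of them, at 16847442, had a signal of 266.5 and ranked 809, 1771 and 5485, again with 61.4% GC. The next, at 16834855, had a signal of 209.3 and ranked 2280, 3156 and 3090. The abd-A window held 7, 5 and 4 of the strongest summits of replicates 1, 2 and 3 (mean 5.33 ± 1.53, SD, n = 3). It kept 3, 3 and 4 IDR summits without replicates 1, 2 and 3.

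Abd-B (FBgn0000015; 3R, 16927212 to 16972236, minus strand) specifies the posterior abdomen and the genitalia, and carries the strongest peaks of the Hox loci. Its window held 7 IDR summits, 4 of them in the body, at 8.23 per 100 kb, higher than 85.7% of the genes with a body of at least 10 kb. In all, 169 protein-coding genes had 4 or more in the body. Replicates 1, 2 and 3 gave 8, 7 and 11 summits (mean 8.67 ± 2.08, SD, n = 3), and without these replicates in turn 7, 5 and 5 IDR summits remained.

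The strongest peak, on 3R from 16933338 to 16933892 with its summit at 16933578, had a signal of 2619.4 and rank 54 of 4426. It ranked 51, 55 and 57 in replicates 1, 2 and 3, the closest agreement among the 32 summits. The summit lay in a 5' UTR, 664 bp downstream of 1 of the 6 annotated Abd-B TSSs, and was thus not counted at a promoter. Upstream of the same TSS by 128 bp, at 16934370, was the promoter summit, with a signal of 769.1 and rank 249. It ranked 139, 223 and 585. The peaks, 792 bp apart, stand on either side of this start, and the downstream one was 3.41 times as high in pooled signal.

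The next strongest Abd-B summit, at 16919172, lay 8.04 kb beyond the 3' end of the gene in an intron of lncRNA:iab8. Its signal was 422.3, with ranks of 399, 847 and 2146. Within the body, summits in Abd-B introns at 16958247 and 16970027 had signals of 409.9 and 304.3. The former ranked 1647, 1445 and 562 and the latter 1139, 1522 and 2172. These 5 summits were the ones of the window matched in all 3 replicates.

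Summits inside the complexes but beyond 20 kb of any Hox gene body were looked at after the values were seen. There were 6, and 1 of them had nearly the signal of the strongest Abd-B peak. It lay in the DNA between abd-A and Abd-B, on 3R from 16876536 to 16877096 with its summit at 16876840, 46.8 kb from the end of abd-A and 50.4 kb from Abd-B. Its signal was 2516.7 at rank 56, and it ranked 57, 56 and 60 in replicates 1, 2 and 3.

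The same stretch, covered by lncRNA:iab8, held a pair of further summits. That at 16899225 had a signal of 501.2 and ranked 265, 746 and 1091. That at 16869535 had a signal of 240.3 and ranked 1494, 1393 and 7384. Its 101 bp hold 4 matches to GCCAT, all in the reverse direction, and it was the single window of the 4426 with as many (0.0226%). The DNA between these genes is known to hold enhancer domains and boundary elements that control Abd-B and abd-A. No positions of such elements were used here, so the summits are not assigned to any. Their windows, on the plus strand of dm6 with motif matches in capitals, show the repeated GCCAT core and the GAGAG matches.
iab8 intron, chr3R:16869485-16869585: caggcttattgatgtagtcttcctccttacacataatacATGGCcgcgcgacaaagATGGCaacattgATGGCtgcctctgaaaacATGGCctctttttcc
iab8 intron, chr3R:16876790-16876890: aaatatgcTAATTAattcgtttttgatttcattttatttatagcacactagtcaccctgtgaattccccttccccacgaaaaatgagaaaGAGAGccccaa
iab8 intron, chr3R:16899175-16899275: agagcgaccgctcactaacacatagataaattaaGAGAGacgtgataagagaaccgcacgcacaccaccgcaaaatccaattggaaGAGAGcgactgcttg

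Of the other 3, a summit at 6763079 lay 325 bp from a TSS of Ama, a cell adhesion gene next to bcd, with a signal of 386.2 and ranks of 2205, 1037 and 753. Summits at 16769608 and 16771797, with signals of 158.4 and 318.8, lay in introns of lncRNA:bxd, a non-coding gene upstream of Ubx. Counted over the whole spans with 20 kb at each end, the Antennapedia complex held 17 summits in 378 kb (4.5 per 100 kb) and the bithorax complex 21 in 356 kb (5.91 per 100 kb). In the strongest peaks of replicates 1, 2 and 3 the counts were 12, 11 and 15 for the former and 23, 19 and 22 for the latter, so the bithorax complex had more in each replicate. Per 100 kb, the Antennapedia complex was below the 3.31 of the arms in replicates 1 and 2 and above it in replicate 3. The bithorax complex was above it in all 3.

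**Figure D4:**
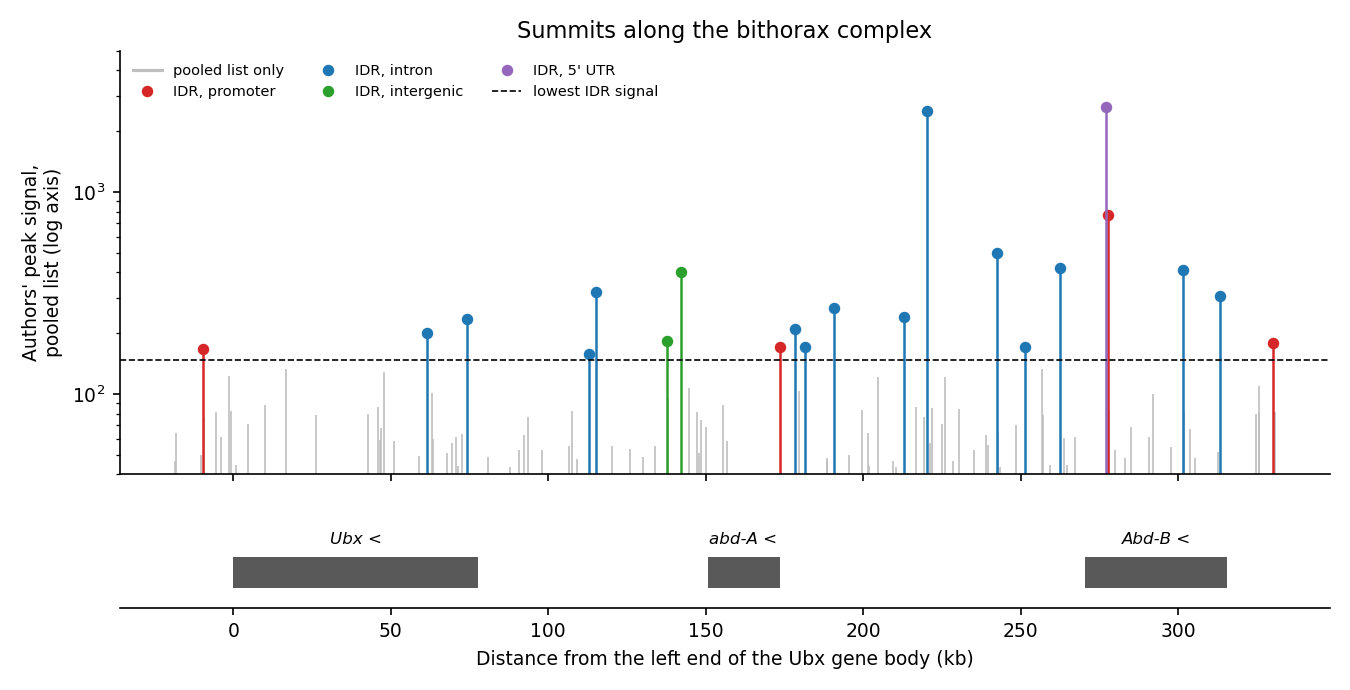
Summits along the bithorax complex, from Ubx to Abd-B, by distance from the left end of the Ubx gene body (kb), drawn as for the Antennapedia complex. The 2 tallest lines are the peak between abd-A and Abd-B (signal 2516.7) and the 5' UTR peak of Abd-B (signal 2619.4), and the body of abd-A holds no IDR summit.

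The complexes also differed in the composition of the DNA at their summits. In the 101 bp around the 16 summits of the Antennapedia windows, GC ran from 18.8% to 40.6% with a median of 30.2%. In the 16 of the bithorax windows it ran from 20.8% to 61.4% with a median of 42.1%. The number above 42% GC, a cut chosen after the data were seen, was 0 of 16 and 8 of 16. Over all 32 the median was 31.2%, close to the 32.7% of all IDR windows (quartiles 27.7% and 41.6%) and below the 41.6% of the whole Hox loci.

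GC content went along with how the replicates ranked these summits. Of the 8 summits above 42% GC, 7 ranked higher in replicate 1 than in replicate 3. The log2 ratio of rank in replicate 3 to rank in replicate 1 had a median of 2.11 over all 8. Of the 23 others with a rank in both, 8 ranked higher in replicate 1, and the median over all 23 was -0.47. Over the 31 summits Pearson's r of GC with this log2 ratio was 0.51 and Spearman's rho 0.424. The whole IDR list showed the same direction, with 71.9% of 934 summits above 42% GC and 35.5% of 3269 others ranking higher in replicate 1, and r = 0.374 over 4203 summits. The points come from the same libraries and are not independent samples.

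The median GC over all of a replicate's strongest peaks was 36.6%, 35.6% and 31.7% in replicates 1, 2 and 3, and over those in the Hox loci 39.1%, 33.7% and 29.7%. The Hox median was thus above that of all peaks in replicate 1 and below it in replicates 2 and 3. The replicates thus differed across the genome, not at Hox genes alone. Among summits above 42% GC, those at the abd-A and Abd-B promoters were both strongest in replicate 1 and weakest in replicate 3. The summit at 16986659, with 44.6% GC, went the other way, with ranks of 12882, 3251 and 2008. Whether the difference between replicates comes from the libraries was not tested. The strongest Abd-B peak, with 49.5% GC, kept its rank in all 3.

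**Figure D5:**
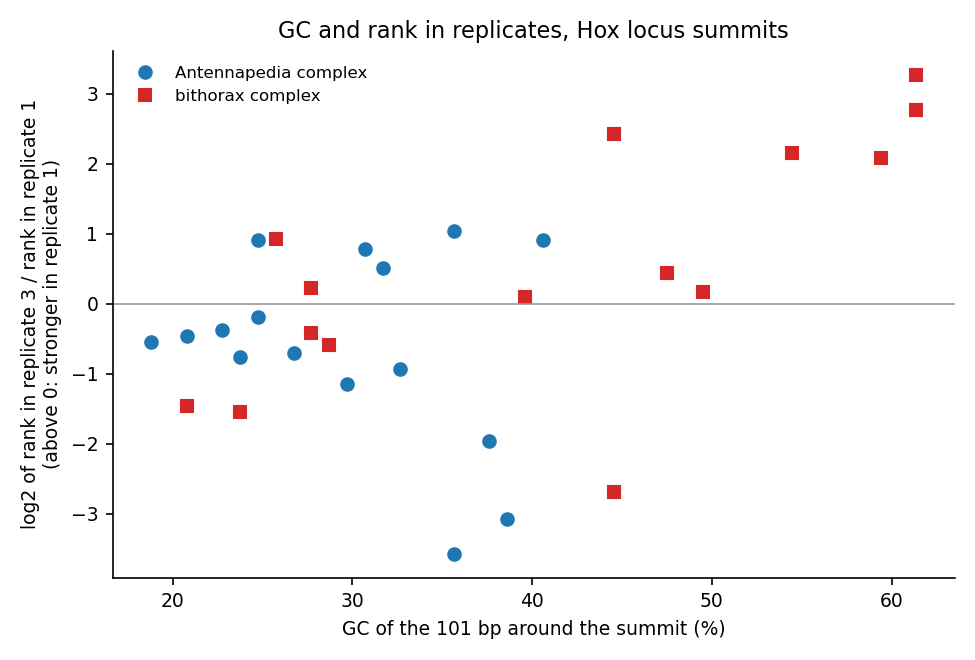
GC of the 101 bp around each Hox locus summit (%) against the log2 ratio of its rank in replicate 3 to its rank in replicate 1, with values above 0 for summits that were stronger in replicate 1. Circles are the Antennapedia complex and squares the bithorax complex, 31 summits in all. The points above 42% GC are all squares, and 7 of these 8 lie above 0.

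A set of 10 short motifs was searched on both strands of the 32 windows, and each share is given beside that of all 4426 IDR windows. GAGAG, the core bound by GAGA factor, a Trithorax group protein, was in 5 (15.6%) against 12.2%. GCCAT, the core bound by the Polycomb recruiter Pho, was in 6 (18.8%) against 13.1%. In the bithorax windows each of these was in 4 of 16, and in the Antennapedia windows GAGAG was in 1 and GCCAT in 2. The bithorax windows with GAGAG were the strongest abd-A and Abd-B summits and those at 16847442 and 16919172, all of them above 42% GC.

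Motifs of the homeodomain proteins themselves were not more frequent than in the list as a whole. TAATTA, a homeodomain core, was in 2 windows (6.25%) against 10.1%, and TGATNNAT, for Exd with a Hox protein, in 1 (3.13%) against 8.45%. The Zelda motif CAGGTAG was in 1 (3.13%) against 0.362%. CGATA of BEAF-32 was in 1 (3.13%) against 12.7%, and a run of AAAAAAA in 3 (9.38%) against 12.7%. No window held TATCGATA (0.904% of all), GGTCACAC (0.813%) or the E-box CAGCTG (3.43%), where the exact upper bound is again 10.9%. CGATA lies within TATCGATA, so those counts overlap. A match is a description of the letters and does not show a bound factor. With 32 windows, a single match moves a share by 3.13 percentage points.

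Genes that work with the Hox genes were counted by the same rules. Of the other 4 homeobox genes of the Antennapedia complex, ftz, zen, zen2 and bcd, none had a promoter summit, against 14.8% of all genes. All 4 had one in the body or the 20 kb around it, against 72.6% of all protein-coding genes, but these windows overlap and hold 4 distinct summits in all. Over the whole Antennapedia complex span only 1 IDR summit lay outside the Hox loci. At most 1 of the 4 summits is therefore separate from the Hox locus summits already counted, so they are not an independent finding. Of the Hox cofactor genes, hth had 9 summits in its body of 132 kb and 12 in its window, and exd had none in its window. Of the 12 at hth, 33.3% were matched in all 3 replicates, against 56.0% of all IDR summits. Neither cofactor gene had a promoter summit, beside the same 14.8%. Like Antp, the long gene hth held many summits in its body and none at its own promoter.

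Of 12 genes known as Hox targets, 2 (16.7%) had a promoter summit, against 14.8% of all genes. One was fkh (FBgn0000659), a forkhead factor gene of the salivary gland that Scr activates. Its peak, on 3R from 28585385 to 28585597, lay 238 bp from a TSS with a signal of 720.2 and rank 273, and ranked 246, 278 and 359. The other was Dll (FBgn0000157), the limb gene that Ubx and abd-A repress in the abdomen, with a signal of 486.2 at rank 611, 116 bp from a TSS, and ranks of 320, 412 and 2353. Over the windows of the 12 genes the density was 3.32 per 100 kb in the IDR list, beside 3.31 over the arms. In replicates 1, 2 and 3 it was 4.38, 3.45 and 3.72 (mean 3.85 ± 0.479, SD, n = 3), above the arms in each.

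Of the patterning genes that act upstream of the Hox genes, gap genes had a lower density of IDR summits and pair-rule genes a similar one. The 7 gap genes had no promoter summit, against 14.8% of all protein-coding genes. Their windows held only 6 summits, or 1.85 per 100 kb (2.16, 1.24 and 2.16 in replicates 1, 2 and 3). The 9 pair-rule genes, which include ftz, had 5.14 per 100 kb (5.14, 4.87 and 5.68 in the replicates), beside 5.10 for the Hox loci. The window of ftz, in the Antennapedia complex, held 1 summit. It can be one of the Hox loci, so these densities are not fully separate. Of the 9 pair-rule genes, 2 (22.2%) had a promoter summit, beside the same 14.8%. They were slp2, a forkhead factor gene, with a signal of 286.9 at rank 1558, and the repressor gene hairy, annotated as hry, with a signal of 255.1 at rank 1843. Promoter counts in lists this short are not read as a difference between the classes. In each of the 3 replicates the Hox density of 3.98 to 4.94 was above that of the gap genes and below that of the pair-rule genes.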

How the data were processed

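Chromatin of 3 replicates of whole embryos was precipitated for GFP-tagged CG6254 and sequenced. Replicate numbers came from the labels, which call them biological. Per the file headers and readme texts, the authors called 1 relaxed list per replicate, each against the same control alignment, 1 on the pooled replicates, and derived the IDR list from these. The control itself was not analysed here. The deposited signal (a value per peak, not scaled by the authors in any stated way) and the deposited summit offset were used. The deposited −log10 q-values and the dm3 lists were not. The aligner, the caller, the threshold of the IDR procedure and the depth are, in these sources, not given, and depth sets how many weak peaks a list can hold.

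Summits were the interval start plus the offset, counted from 1. Gene models were those of Ensembl release 115 on dm6, without mobile elements, and sequence from the RefSeq copy of dm6. Each summit was put in 1 class, with promoter taken first, then UTRs and coding exons, then other exons, then introns, then intergenic DNA. Ranks in replicates are those of the nearest summit within 200 bp. Exact intervals are Clopper-Pearson. Python 3.11.15, numpy 2.4.6, pandas 2.3.3 and scipy 1.17.1 were used, and summit placement was checked on simulated positions. In the gene lists hairy was found under its symbol hry.

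The members, gene lists and motifs were chosen with earlier results of these data known. The text names all 8 genes, their promoter summits, the 3 strongest summits of each and, among related genes, those with a promoter summit. Summits outside the windows, promoter sequences, the 42% GC cut, whole complex spans and counting close summits once were chosen after seeing the data. The other alternatives are in the closing section.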

Additional observations from a re-analysis of the deposited data

How the results depend on the processing

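The density of IDR summits in the Hox loci, 5.10 per 100 kb as reported, was 4.57 with 50 kb around each gene, 2.07 in the strongest 2213 IDR peaks (1.25 times the arms), 2.87 to 3.19 when a replicate was left out, and 4.46 and 3.98 in replicates 1 and 2 alone. Sets with fewer peaks are less dense by construction. The ratio to the arms was 1.54 as reported and 1.21 to 1.58 over the alternatives, above 1 in all of them. The count of Hox genes with a promoter summit, 3 as reported, was 1 in the strongest 2213 and in replicate 3 alone, and 1 to 2 when a replicate was left out. The promoter share of summits was 18.8% as reported, against 42.7% of all IDR summits. In the gene bodies alone it was 5.88%. Bodies leave out the promoter summits of Dfd and abd-A, which lie upstream of these genes, so part of this fall is by construction. In the strongest 2213 the share was 7.69% against 45.1%. When a replicate was left out it was 5.56% to 10.5%, against 41.3% to 46.5%. In replicate 1 alone it was 14.3% against 47.6%. Within 200 bp of a TSS it was 12.5% against 27.9%, and within 1000 bp 21.9% against 53.5%. With protein-coding TSSs alone it was 15.6%, and with a TSS inside the interval 12.5%. Shares over all peaks are not given for these last settings. The share matched in all 3 replicates, 50% as reported, was 70.6% in the bodies and 92.3% in the strongest 2213. It was 80.0% to 88.9% when a replicate was left out, which selects matched peaks, and 96.9% in the whole relaxed lists. Apart from the bodies, the shares over all peaks under these settings are not given. The median per gene, 3 as reported, was 1.5 in the bodies, 5.5 with 50 kb around them and 1.5 whichever replicate was left out. The other 38 such values moved by at most 1.5 times. Among them the promoter count was 2 in 5 alternatives (without replicate 3, in replicates 1 and 2 alone, within 200 bp and with a TSS inside the interval), and the median per gene was 2 in replicate 1 alone. Against the background, the matched share passed from below 56.0% to 57.7% with 10 kb around the genes. In replicate 3 alone the promoter count was no longer above that of all genes, and in replicate 1 alone the median GC was above that of all peaks. Apart from set size, the causes were not tested.

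No paired analysis was possible because the samples form 1 group. Limits are the 3 replicates, the shared control, the unknown depth, the absence of an untagged sample among those analysed, and whole embryos in place of sorted cells. Leaving out a replicate only filters the IDR list, since the replicate left out still shaped the peaks, so these ranges understate the spread between embryos. A peak below the IDR threshold is not shown to be absent. All but 1 of the 32 IDR summits had a counterpart in each relaxed replicate list of 30000 peaks. The IDR list came from the same replicates, so this is no independent check. It does not bear on peaks below the threshold.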
